A study of Mus musculus with 6 samples.

Results

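Collagen genes outside cartilage were followed in the mouse aorta-gonad-mesonephros (AGM), the band of embryo along the dorsal aorta where the first blood stem cells arise. Every gene whose symbol names a collagen alpha chain was taken except the cartilage genes Col2a1, Col9a1, Col9a2 and Col9a3, which left 40 of 23446 genes in the table. They were divided into 10 fibrillar, 8 basement membrane and 22 other collagens. RNA sequencing was done on AGM of C57BL/6 embryos of age E11.5 with 2 intact alleles of Tph2 (tph2+/+), 1 (tph2+/-) or 0 (tph2-/-), with 2 libraries for each genotype. Tph2 encodes a tryptophan hydroxylase, the enzyme that starts serotonin synthesis, and the series asks how serotonin made in the AGM bears on blood stem and progenitor cells. Littermates are mentioned in the labels, but not which libraries shared a litter or how many embryos went into each. The sources used here do not say how the Tph2 allele was made.

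Collagens are matrix proteins whose chains wind around each other into a stiff helix before they are secreted. Fibrillar collagens assemble into the fibrils that carry tension in mesenchyme, and collagen IV forms the network of basement membranes, the thin sheets under epithelia and around vessels. The remaining collagens coat fibrils, form beaded filaments or short-chain lattices, anchor epithelia, or span the cell membrane. In the AGM, the aortic endothelium, the mesonephric tubules and the coelomic epithelium lie on basement membranes and are set in fibril-containing mesenchyme.

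Values were the authors' RPKM, which are reads scaled to transcript length and to library depth. Low values rise in steps of 1 read, which put the libraries at about 38800000 to 46000000 reads, so a gene model of 2 kb at 1 RPKM rested on 77.6 to 92 reads. Tph2 lay at 0.0280 to 0.0764 RPKM in all 6 libraries and did not check the genotype labels. Xist, the RNA of the inactive X chromosome, was at 76.3 to 101 RPKM in both tph2+/+ libraries and tph2+/- replicate 1, and at 0.0590 to 0.114 RPKM in the other 3. Y-linked Ddx3y had the opposite pattern, so sex and genotype coincide between tph2+/+ and tph2-/- and cannot be told apart there. The mesonephric, gonadal and blood genes used as AGM markers were detected, with all 7 above the filter on low values, and their levels by genotype are given with the other markers.

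Collagen RNA was dominated by a few genes. Summed over the 40 genes, it came to 914 and 963 RPKM in tph2+/+, against 754 and 919 in tph2+/- and 704 and 754 in tph2-/-. The fibrillar class held 62.5% to 64.7% of this sum in each library, the basement membrane class 14.3% to 18.0% and the other class 19.3% to 21.0%. The fibrillar sum was 588 ± 23.2 RPKM (SD, n = 2) in tph2+/+, 533 ± 86.5 in tph2+/- and 459 ± 18.1 in tph2-/-. The basement membrane sum was 168 ± 7.48, 128 ± 5.13 and 125 ± 8.72 RPKM in the same order. For the other class it was 183 ± 4.19, 175 ± 25.0 and 145 ± 9.03 RPKM. The tph2-/- libraries lay below both tph2+/+ libraries in all 3 classes, whereas the tph2+/- libraries did so only for basement membrane collagens. Because AGM tissue was sequenced in bulk, fewer cells of a type and less RNA per cell cannot be told apart.

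**Figure D1:**
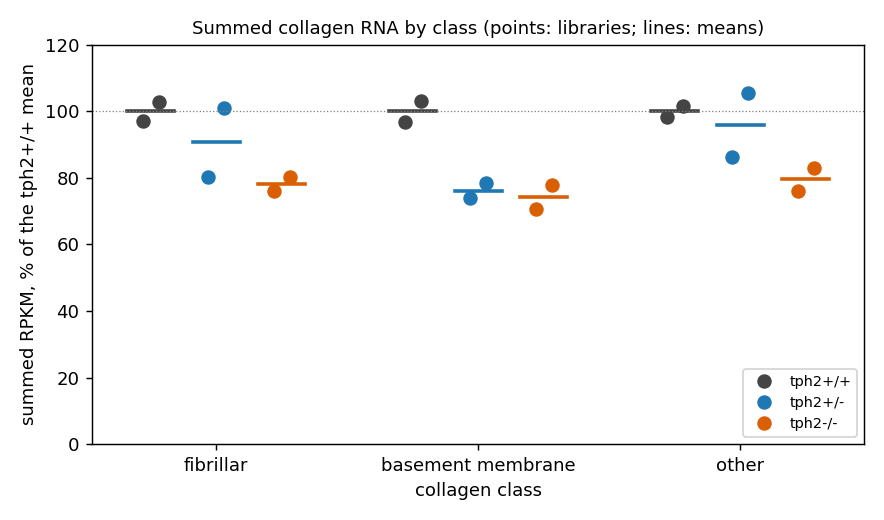
Summed RPKM of the fibrillar, basement membrane and other collagens, as a percentage of the tph2+/+ mean, with a point for each library and a line at the mean of 2. Means of tph2-/- lay at 78.1%, 74.2% and 79.5% in the 3 classes, and those of tph2+/- at 90.7%, 76.2% and 95.8%, with the tph2+/- libraries apart from each other in the fibrillar and other classes.

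Differences were tested for the 29 collagens with a mean of at least 1 RPKM, of which 9 were fibrillar, 6 basement membrane and 14 other. The test was limma on log2(RPKM + 1) over all 12869 genes past this filter, with Benjamini-Hochberg adjustment over all of them and a threshold of 0.05. On this scale the change of weakly expressed genes comes out smaller than in RPKM itself. The 11 collagens under the filter are described by their levels further on.

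The question behind the comparison of tph2-/- with tph2+/+ is what loss of both alleles changes in the tissue. In it, 6 collagens fell, 0 rose and 23 did not pass by limma, and at an unadjusted p under 0.05 the counts were 16 lower and 1 higher, against 10.9% lower and 15.9% higher over all tested genes. Of all tested genes, 9.64% passed in either direction, 5.84% higher and 3.81% lower. Those that fell were the basement membrane genes Col4a1, Col4a2 and Col18a1, the fibrillar gene Col5a1, and Col7a1 and Col26a1 of the other class. The median log2 difference of the 29 was -0.22, against 0.03 for all tested genes. A fitted difference below 0 was seen for 28 collagens, against 42.2% of all tested genes, and 25 had both tph2-/- libraries below both tph2+/+ libraries, against 24.2%. The exception was Col8a1, for which both tph2-/- libraries lay above, as they did for 35.7% of all tested genes. By class, the medians were -0.22 for fibrillar, -0.34 for basement membrane and -0.19 for other collagens, and the difference between classes was not tested. With the values rescaled by quantile normalization or by median ratios, 28 of 29 differences were still below 0, and 8 or 10 collagens passed, all lower. The genes passing in the whole table were 751 higher and 490 lower as deposited, against 548 and 667 after quantile normalization and 597 and 737 after median ratio scaling.

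**Figure D2:**
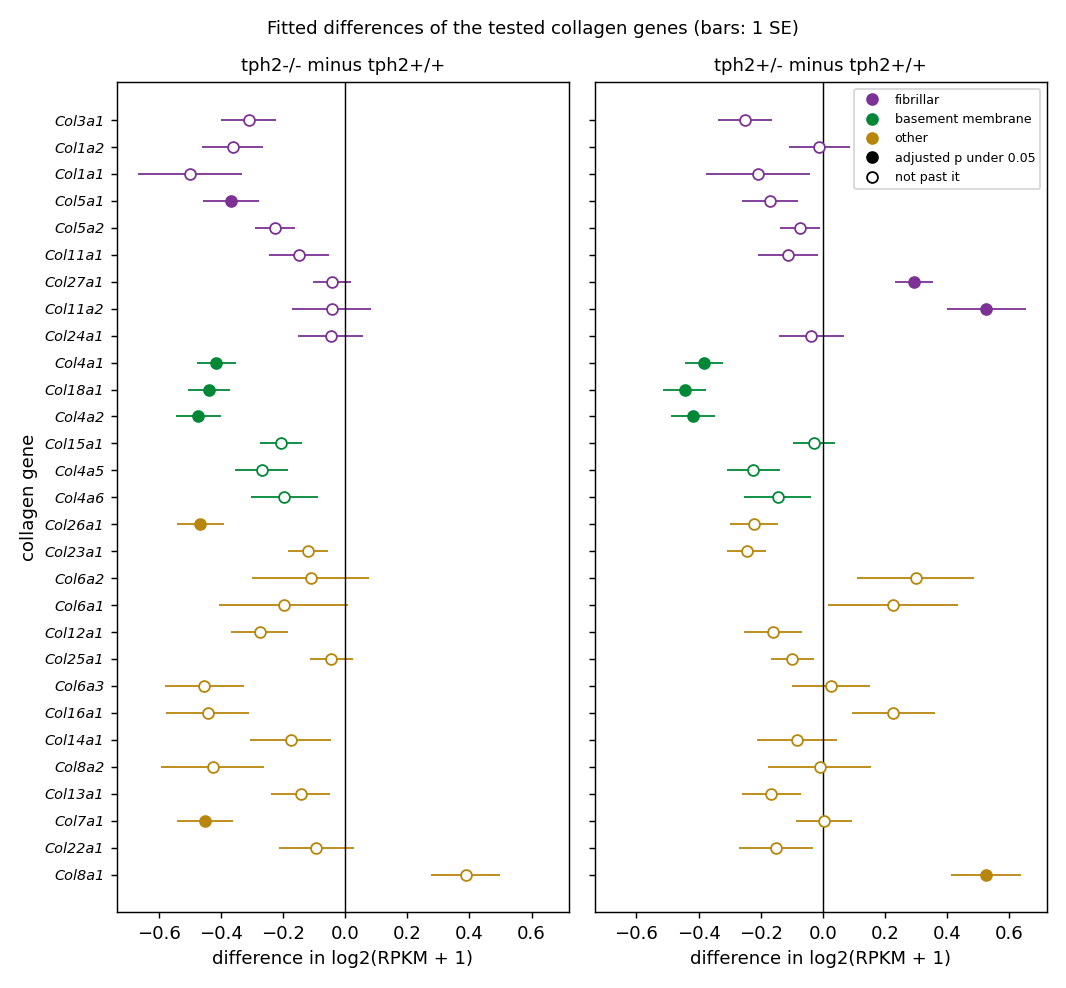
Fitted differences in log2(RPKM + 1) of the 29 tested collagens for tph2-/- minus tph2+/+ and tph2+/- minus tph2+/+, with bars of 1 standard error, colours for the classes and filled points where the limma adjusted p was under 0.05. In the first panel 28 of 29 points lie left of 0 and 6 are filled; in the second, 3 filled points lie on each side of 0.

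How many collagens passed depended on which libraries and terms were in the fit. The spread was pooled over all genotypes, and the tph2+/- libraries differed from each other. The part of this in the counts was not tested. With only the tph2-/- and tph2+/+ libraries in the fit, 15 collagens fell and Col8a1 rose, 16 in all, where 11.8% of all genes passed. Col8a1 had passed the filter on level only through the mutant libraries, where it is high. Among the 15 were Col1a1, Col1a2, Col3a1, Col5a2, Col6a3, Col12a1 and Col16a1. Leaving out tph2+/- replicate 1 or replicate 2 nearly repeats this fit and is no further check. The 1 tph2+/- library left then adds nothing to the spread. Without tph2+/+ replicate 2, only Col4a1 and Col4a2 passed (2.98% of all genes), and without tph2-/- replicate 1 only Col4a1, Col4a2 and Col18a1 did (3.01%). With the Y-linked level as a term, 11 collagens fell (3.11% of all genes), among them Col5a1 and none of the other 5. That fit takes the sex difference from the tph2+/- libraries alone, since these are the only ones of a genotype that differ in sex.

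**Figure D3:**
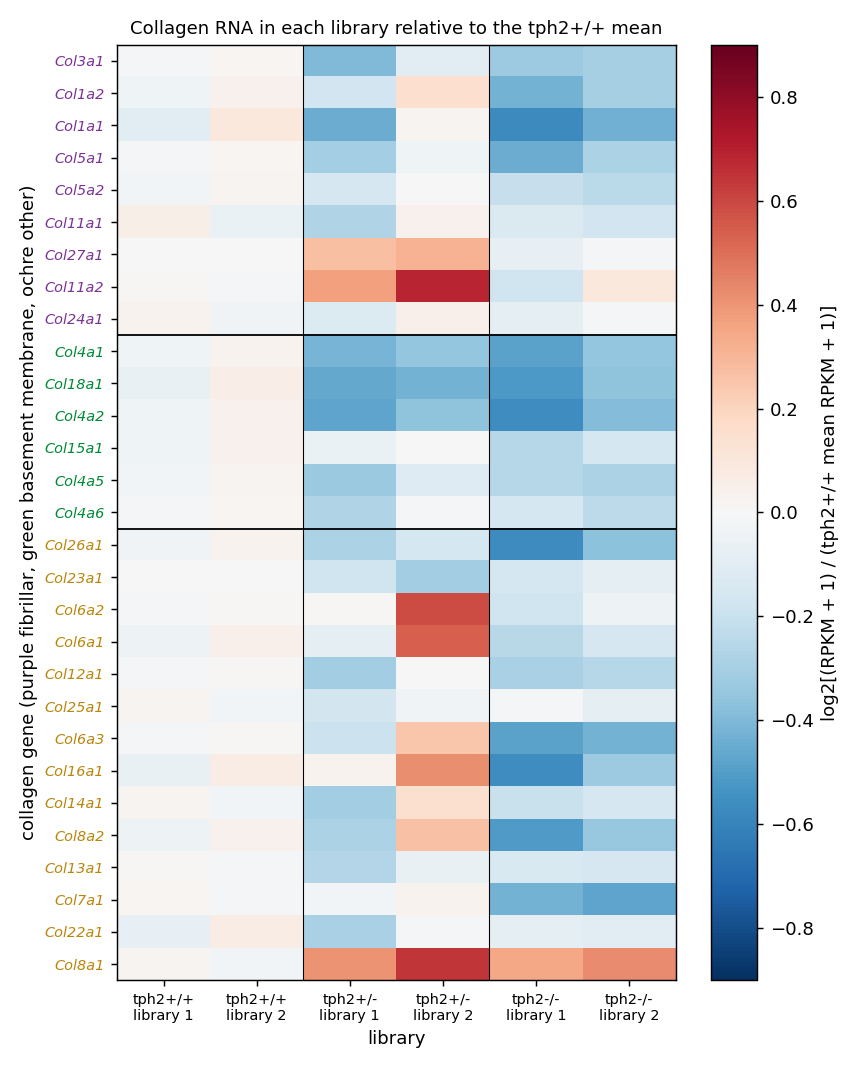
Colour gives log2 of (RPKM + 1) over (tph2+/+ mean RPKM + 1) for each of the 29 tested collagens (rows, ordered by class and level) in each of the 6 libraries (columns). Both tph2-/- columns are blue in most rows, Col8a1 is red in all 4 mutant columns, and the second tph2+/- column is redder than the first in 28 rows.

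Collagen IV is built mostly of the chains encoded by Col4a1 and Col4a2, which lie head to head on chromosome 8. Col4a1 spans 11198423 to 11312826 on the minus strand and Col4a2 spans 11312805 to 11449287 on the plus strand (GRCm38, both protein coding). Their RefSeq transcript starts overlap by 22 bases, so both genes share a stretch of promoter. It is printed here with the promoters of the other collagens that fell and have an entry in the RefSeq table (GRCm38.p6). Capitals mark the letters CCAAT, the run CCCTCCCC, the box GGGCGG or the letters TATAAA on either strand, and no match overlapped another in the stretches shown.
Col4a1 and Col4a2, chr8:11312755-11312854, plus strand, from 50 bases before to 50 after the Col4a2 start: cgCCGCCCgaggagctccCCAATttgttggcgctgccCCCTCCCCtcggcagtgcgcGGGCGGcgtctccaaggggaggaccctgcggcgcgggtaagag
Col18a1, chr10:77166531-77166630, minus strand, 100 bases before the first of its starts: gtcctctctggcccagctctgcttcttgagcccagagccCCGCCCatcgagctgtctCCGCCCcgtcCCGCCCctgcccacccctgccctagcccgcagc
Col5a1, chr2:27886325-27886424, plus strand, 100 bases before its start: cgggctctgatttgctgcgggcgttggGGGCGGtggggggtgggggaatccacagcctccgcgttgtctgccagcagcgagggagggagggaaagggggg
Col7a1, chr9:108953486-108953585, plus strand, 100 bases before its start: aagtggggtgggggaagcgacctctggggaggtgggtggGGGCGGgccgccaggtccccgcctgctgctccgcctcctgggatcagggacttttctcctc

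In the shared Col4a1 and Col4a2 stretch, CCAAT began 32 bases and CCCTCCCC 13 bases before the Col4a2 start, at offsets of -32 and -13. GGGCGG stood on the opposite strand at -48 and on the plus strand at 7. Windows from 250 bases before to 50 after a start were found for 33 of the 40 collagens, and the motifs were counted in all 32851 such windows of the table. GGGCGG, which zinc finger factors of the Sp family bind, was in 62.9% of collagen windows and 35.7% of all windows. CCCTCCCC was in 31.4% and 10.8%, and CCAAT in 34.3% and 37.4%. The window of another Col18a1 start, at 77113705, held none of these motifs, and which start is used in the AGM was not examined. A match says only that the letters are there, and the classes were not compared by motif.

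Col4a1 was measured at 55.3 and 58.2 RPKM in tph2+/+, against 42.3 and 44.3 in tph2+/- and 40.4 and 44.3 in tph2-/-. Col4a2 was at 41.4 and 43.7, 30.3 and 32.9, and 28.6 and 32.3 RPKM in that order. For both genes the 4 mutant libraries overlapped each other and lay below both tph2+/+ libraries. Col4a1 fell by 25.4% in tph2-/-, a log2 difference of -0.42 ± 0.0621 (SE) with a limma adjusted p of 0.00409, and by 23.7% in tph2+/- (-0.38 ± 0.0621, adjusted p = 0.00728). Col4a2 fell by 28.5% in tph2-/- (-0.47 ± 0.0715, adjusted p = 0.00428) and by 25.7% in tph2+/- (-0.42 ± 0.0715, adjusted p = 0.00977). The ratio of Col4a1 to Col4a2 in RPKM was 1.34 and 1.33 in tph2+/+, 1.40 and 1.35 with 1 allele lost, and 1.41 and 1.37 with both lost. All 4 mutant libraries were thus slightly above tph2+/+ in this ratio, which was not tested. Both calls in tph2+/- were lost without tph2+/+ replicate 2 (adjusted p = 0.0743 and 0.0822), and both calls in tph2-/- with the Y-linked term (0.0725 and 0.0529), where the differences were -0.47 and -0.58. The kit does not mark strand, so reads where the 2 genes or their antisense genes overlap could count for either.

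**Figure D4:**
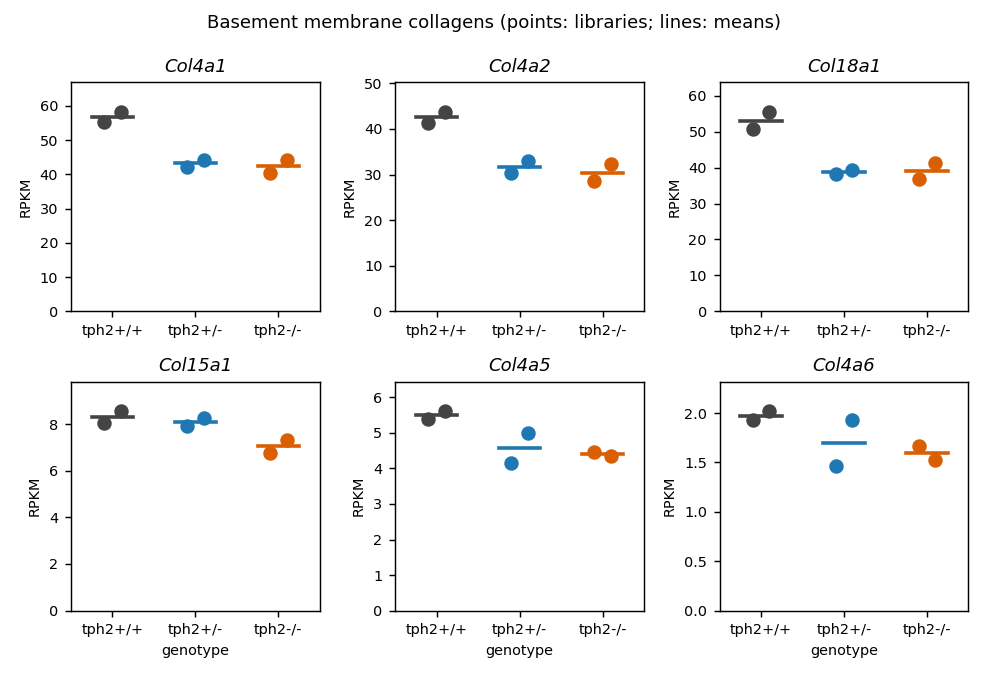
RPKM of the 6 tested basement membrane collagens by genotype, on axes from 0, with a point for each library and a line at the mean of 2. Col4a1, Col4a2 and Col18a1 are lower in all 4 mutant libraries, while Col15a1 lies within 6.76 to 8.54 RPKM throughout.

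Col18a1 encodes the core of a basement membrane proteoglycan from which the fragment endostatin is released. It lies on chromosome 10 from 77052178 to 77166548, minus strand. Its levels were 50.7 and 55.4 RPKM in tph2+/+, against 38.2 and 39.2 in tph2+/- and 36.7 and 41.1 in tph2-/-. Again all 4 mutant libraries were below both tph2+/+ libraries. It fell by 26.6% in tph2-/- (-0.44 ± 0.0688, limma adjusted p = 0.00522) and by 27.1% in tph2+/- (-0.44 ± 0.0688, adjusted p = 0.00542). Both calls were lost without tph2+/+ replicate 2 (adjusted p = 0.0538 and 0.0559 in that order). With the Y-linked term the call in tph2-/- was lost as well (adjusted p = 0.115), with a difference of -0.46. Col18a1 overlaps Slc19a1 on the opposite strand, whose reads could not be separated where they overlap.

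The other tested basement membrane collagens did not pass in any comparison. Col15a1, the close relative of Col18a1, had 8.03 and 8.54 RPKM in tph2+/+, against 7.92 and 8.27 in tph2+/- and 6.76 and 7.32 in tph2-/-. Only its tph2-/- libraries lay apart from tph2+/+, with a log2 difference of -0.21 ± 0.0680 and an adjusted p of 0.0908. The X-linked pair Col4a5 and Col4a6, also head to head, forms another collagen IV network. Col4a5 ran from 4.16 to 5.60 RPKM and Col4a6 from 1.47 to 2.02, with tph2-/- differences of -0.27 and -0.20 (adjusted p = 0.0831 and 0.273). Their RPKM ratio was 2.59 to 2.85 in the 6 libraries. Col4a3 and Col4a4, whose chains join that of Col4a5 in the mature kidney filter, were near the floor at 0.0314 to 0.0808 RPKM, with 119 and 101 estimated reads over all libraries. Their tph2-/- to tph2+/+ ratios of 1.23 (95% interval 0.766 to 1.96) and 0.658 (0.390 to 1.09) cover counting error only and include equality.

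Among fibrillar collagens, Col3a1, Col1a2 and Col1a1 had the highest levels. Col1a1 and Col1a2 encode the chains of collagen I, and Col3a1 the chain of collagen III, which is plentiful in vessel walls. Col3a1 was at 227 and 233 RPKM in tph2+/+, against 174 and 215 in tph2+/- and 184 and 187 in tph2-/-. Col1a2 was at 143 and 152, 131 and 163, and 109.6 and 119.6 RPKM in that order, and Col1a1 at 120.1 and 138, 94.4 and 131, and 86.2 and 95.1 RPKM. For all 3 genes both tph2-/- libraries were below both tph2+/+ libraries, whereas the tph2+/- libraries spread widely. Their tph2-/- log2 differences were -0.31 ± 0.0871 (limma adjusted p = 0.0580), -0.36 ± 0.0989 (0.0581) and -0.50 ± 0.167 (0.136). None passed, though all 3 did when only the 4 libraries compared were fitted.

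Col5a1 encodes a chain of collagen V, a minor component that starts and limits fibril growth. It was measured at 31.4 and 32.2 RPKM in tph2+/+, against 25.5 and 31.0 in tph2+/- and 23.1 and 25.9 in tph2-/-. The tph2-/- libraries were below both tph2+/+ libraries, and tph2+/- replicate 1 lay among them. Col5a1 fell by 23.0% in tph2-/- (-0.37 ± 0.0903, limma adjusted p = 0.0387). This call was among the least stable, kept in 8 of 14 alternative fits with adjusted p of 0.00953 to 0.241. It was lost without either tph2+/+ library or either tph2-/- library. Its partner Col5a2 had a difference of -0.22 ± 0.0647 (adjusted p = 0.0625). Of the remaining fibrillar genes, Col11a1 and Col24a1 had differences of -0.15 and -0.05, and Col5a3, under the filter, stood at 0.278 to 0.586 RPKM.

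Col7a1 and Col26a1 fell in the other class. Col7a1 (chromosome 9, 108953586 to 108984875, plus strand) encodes the anchoring fibrils that hold epithelia to the tissue below. It stood at 2.06 and 1.99 RPKM in tph2+/+, against 1.97 and 2.10 in tph2+/- and 1.25 and 1.17 in tph2-/-. Only the tph2-/- libraries were low. Col7a1 fell by 40.1% in RPKM, a difference of -0.45 ± 0.0897 on the log2(RPKM + 1) scale (limma adjusted p = 0.0161). Its difference in tph2+/- was 0.00 (adjusted p = 0.990), and that between tph2-/- and tph2+/- was -0.45 (adjusted p = 0.0510). The tph2-/- call was lost when any 1 of the tph2+/+ or tph2-/- libraries was left out, and with the Y-linked term at a difference of -0.52, with adjusted p of 0.00708 to 0.131 over all alternatives.

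Col26a1 (chromosome 5, 136741759 to 136883209, minus strand) encodes a short collagen first described in developing testis and ovary. With a mean of 68.1 RPKM it ranked first in the other class. Its levels were 77.3 and 81.1 RPKM in tph2+/+, against 64.7 and 71.0 in tph2+/- and 53.1 and 61.2 in tph2-/-. The genotypes did not overlap and stood in the order of intact alleles. Col26a1 fell by 27.8% in tph2-/- (-0.47 ± 0.0765, limma adjusted p = 0.00640). The tph2+/- difference of -0.22 did not pass (adjusted p = 0.142), nor did that between tph2-/- and tph2+/- (-0.25, adjusted p = 0.209). Without tph2+/+ replicate 2 or tph2-/- replicate 1, and with the Y-linked term at a difference of -0.59, the tph2-/- call was lost, with adjusted p of 0.00141 to 0.0595 over all alternatives.

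The other class held 2 more genes of high level. Col23a1, a membrane-spanning collagen, was at 18.8 RPKM in each tph2+/+ library, at 16.5 and 15.0 for tph2+/-, and at 16.8 and 17.7 for tph2-/-. Its tph2+/- difference was -0.25 ± 0.0639 (limma adjusted p = 0.0589). Col6a2, a chain of the beaded filament collagen VI, was at 15.9 and 16.2 RPKM in tph2+/+, against 16.2 and 24.5 in tph2+/- and 14.0 and 15.5 in tph2-/-. The tph2+/- replicate 2 stood above all other libraries. The same library was highest for Col6a1 (20.4 RPKM) and Col6a3 (10.3 RPKM), the other main chains of collagen VI. Neither these nor Col6a2 passed in any comparison. The RPKM ratio of Col6a3 to Col6a2 was 0.532 in each tph2+/+ library, 0.452 and 0.421 for tph2+/-, and 0.415 and 0.392 for tph2-/-. All 4 mutant libraries were below tph2+/+ in this ratio, which was not tested.

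The fibril-coating collagens Col12a1, Col14a1, Col16a1 and Col22a1 had tph2-/- differences of -0.28, -0.18, -0.44 and -0.09, and none passed. Among membrane-spanning collagens, Col13a1 and Col25a1 had -0.14 and -0.05. Col8a2, a short-chain collagen of subendothelial matrix, had -0.43 ± 0.166 (limma adjusted p = 0.155). Its relative Col8a1, found in vascular walls, went the other way at 0.39 ± 0.112 (adjusted p = 0.0628). Col19a1, Col20a1 and Col28a1, under the filter, lay between 0.211 and 1.14 RPKM. Col10a1, which marks mature growth-plate cartilage, had 5 estimated reads over the 6 libraries.

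With the comparison of tph2+/- and tph2+/+, which asks what loss of 1 allele changes, 6 collagens passed, 3 in each direction. Of all tested genes 6.08% passed, 4.13% higher and 1.95% lower. Col4a1, Col4a2 and Col18a1 fell, all of the basement membrane class, and Col11a2, Col27a1 and Col8a1 rose, the last of which passed the filter only through the mutant libraries. The median difference of the 29 was -0.10, against 0.02 for all tested genes. A difference below 0 was seen for 21, against 41.4% of all genes. That number was 14 without tph2+/- replicate 1 and 24 without tph2+/- replicate 2. Both tph2+/- libraries lay below tph2+/+ for 10 collagens and above for 4, against 19.8% and 32.3%. Class medians were -0.07 for fibrillar, -0.30 for basement membrane and -0.05 for other collagens. After quantile normalization 1 rose and 4 fell, and after median ratio scaling 2 rose and 4 fell, while over all tested genes 531 higher and 251 lower became 408 and 370, or 453 and 363. Both comparisons share the tph2+/+ libraries, so a low or high tph2+/+ value moves both. Without tph2+/+ replicate 1, 3 collagens passed (2.53% of all genes). Without tph2+/+ replicate 2, 0 did by limma, where 2.63% of all genes passed, and 7 had an unadjusted p under 0.05, against 13.1%.

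Differences within tph2+/- were broad. Replicate 2 was above replicate 1 for 28 of 29 collagens, against 50.4% of all tested genes, with a median gap of 0.25 on the log2 scale. In tph2+/+ and tph2-/- replicate 2 was above for 21 of 29, against 53.2% and 52.5%, with median gaps of 0.04 and 0.08. The gap within tph2+/- was 0.30 for fibrillar, 0.09 for basement membrane and 0.29 for other collagens. Col23a1 alone was higher in replicate 1. The median difference of the other class from tph2+/+ was 0.09 without tph2+/- replicate 1 and -0.19 without replicate 2, and that of the fibrillar class 0.04 and -0.17. That of the basement membrane class was -0.23 and -0.37. The libraries also differed in sex, in summed smooth muscle markers (95.3 and 117 RPKM) and in somite muscle markers (224 and 309 RPKM), and the part of these in the gap was not tested.

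Col11a2 and Col27a1 are fibrillar collagens best known from cartilage. Col11a2 (chromosome 17, 34039437 to 34066685, plus strand) was at 2.24 and 2.20 RPKM in tph2+/+, against 3.17 and 4.18 in tph2+/- and 1.84 and 2.45 in tph2-/-. Col27a1 (chromosome 4, 63214004 to 63334991, plus strand) was at 7.90 and 7.97, 9.79 and 10.1, and 7.47 and 7.87 RPKM. In both genes the tph2+/- libraries stood above the other 4. Col11a2 rose in tph2+/- by 0.53 ± 0.127 on the log2 scale (limma adjusted p = 0.0450), a call kept in only 3 of 14 alternative fits. Col27a1 rose by 0.29 ± 0.0613 (adjusted p = 0.0243), kept in 9 of 14, and was lost when any 1 of the tph2+/+ or tph2+/- libraries was left out. Of 11 tested cartilage and sclerotome markers, 4 rose (Col9a1, Col9a3, Cnmd and Sox9) and 2 fell (Pax1 and Hapln1) in tph2+/-, against 4.13% higher and 1.95% lower among all tested genes. Cnmd passed the filter on level only through the mutant libraries, where it is high. Their summed level was 193 and 203 RPKM in tph2+/+, against 186 and 219 in tph2+/- and 175 and 194 in tph2-/-. Their part in the collagen values was not tested.

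Col8a1 (chromosome 16, 57624258 to 57754737, minus strand) was at 0.749 and 0.689 RPKM in tph2+/+, against 1.28 and 1.68 in tph2+/- and 1.19 and 1.31 in tph2-/-. Both mutant genotypes stood above both tph2+/+ libraries, with ratios of mean RPKM of 2.06 in tph2+/- and 1.74 in tph2-/-. With a mean of 0.719 RPKM in tph2+/+ it passed the filter of 1 RPKM only through the mutant libraries, so it was bound to differ among those tested, and its values are given as a description. It rose in tph2+/- by 0.52 ± 0.112 (limma adjusted p = 0.0261), a call kept in 6 of 14 alternative fits and lost without either tph2+/+ library. In tph2-/- it passed in some settings, such as a pseudocount of 0.1 or only the 4 libraries compared. For the same reason these calls are not support for a rise.

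Between tph2-/- and tph2+/-, 1 collagen passed, where 1.29% of all tested genes passed and 0.544% fell. Col27a1 was lower in tph2-/-, with a difference of -0.34 ± 0.0613 (limma adjusted p = 0.0362), and that call was kept in 4 of 14 alternative fits. Differences below 0 numbered 24 of 29, against 50.5% of all genes, and 12 had both tph2-/- libraries below both tph2+/- libraries, against 21.7%. The number below 0 depended on the tph2+/- library used, at 15 of 29 without replicate 2 and 28 without replicate 1. Class medians were -0.20 for fibrillar, -0.05 for basement membrane and -0.19 for other collagens. Leaving out tph2+/- replicate 1 gave 8 lower collagens (2.24% of all genes), and leaving out any other library gave 0 by limma, with 4 to 9 lower at an unadjusted p under 0.05. Over all genes, 7.04% without tph2-/- replicate 1 and 19% without replicate 2 had such a p. The largest difference was that of Col16a1, at -0.67 ± 0.133 (adjusted p = 0.0585).

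Below the filter, 3 collagens stood out and were chosen after their values were seen. Col6a5 and Col6a6, with Col6a4, lie side by side on chromosome 9 and encode alternative chains of collagen VI. Col6a5 (105856078 to 105960643, minus strand) was at 0.0351 and 0.0384 RPKM in tph2+/+, against 0.349 and 0.442 in tph2+/- and 0.0361 and 0.00548 in tph2-/-. In estimated reads it had 15 and 16, 130 and 167, and 13 and 2. Both tph2+/- libraries were far above the other 4, with a ratio to tph2+/+ of 10.7 (95% interval 7.39 to 16.1, counting error only). In tph2-/- that ratio was 0.563 (0.283 to 1.08).

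The neighbours of Col6a5 were not high in tph2+/-. Col6a4 had 34 and 38 estimated reads in tph2+/+, against 15 and 14 in tph2+/- and 37 and 32 in tph2-/-, a tph2+/- to tph2+/+ ratio of 0.450 (0.282 to 0.702). Col6a6 was at 1.00 and 1.06 RPKM in tph2+/+, against 0.527 and 0.692 in tph2+/- and 0.525 and 0.543 in tph2-/-. Related genes such as these can share reads, and how the authors' counting split them is not given.

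Col17a1, a membrane-spanning collagen of the junctions that hold surface epithelium to its basement membrane, was at 0.421 and 0.423 RPKM in tph2+/+, against 0.858 and 1.16 in tph2+/- and 0.323 and 0.366 in tph2-/-. It lies on chromosome 19 from 47646344 to 47692094, minus strand. The tph2+/- libraries stood above the other 4. With no filter on level, Col6a5 and Col17a1 were the 2 of these 11 collagens that rose in tph2+/- (limma adjusted p = 0.00629 and 0.0388). There 3.26% of all 19818 genes passed, 491 higher and 155 lower. Both were lower in tph2-/- than in tph2+/- (adjusted p = 0.00606 and 0.0411), where 1.21% passed, 174 higher and 65 lower. Col6a6 was the only one that fell in tph2-/- against tph2+/+ (-0.41 ± 0.0833, adjusted p = 0.0435). There 5.44% passed, 802 higher and 276 lower. The 7 epithelial markers summed to 66.8 and 69.4 RPKM in tph2+/+, against 86.4 and 92.8 in tph2+/- and 69.0 and 74.7 in tph2-/-. Of these 7, 1 rose in tph2+/- and 2 in tph2-/- by limma, and 0 fell, against 4.13% and 5.84% higher over all tested genes. At an unadjusted p under 0.05, 6 were higher in tph2+/- (13.1% of all tested genes) and 0 lower, with a median of 0.29. In tph2-/-, 3 were higher and 2 lower (15.9% and 10.9%), with a median of 0.04. Krt14, a keratin of the basal surface layer, was at 5.96 and 5.18, 8.60 and 14.0, and 4.88 and 5.65 RPKM. Their part in the Col17a1 values was not tested.
The promoters of Col6a5 and Col17a1 are shown as those of the 2 low collagens that were high in tph2+/-, with capitals for the same motifs.
Col6a5, chr9:105960644-105960743, minus strand, 100 bases before its start: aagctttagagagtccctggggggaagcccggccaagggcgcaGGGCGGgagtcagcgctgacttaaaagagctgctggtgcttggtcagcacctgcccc
Col17a1, chr19:47692043-47692142, minus strand, 100 bases before its start: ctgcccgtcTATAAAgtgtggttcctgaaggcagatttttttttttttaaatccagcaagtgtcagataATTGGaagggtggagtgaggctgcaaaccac
TATAAA was in 14.3% of collagen windows and 13.6% of all windows, and the windows of Col6a5 and Col17a1 shared none of the 4 motifs.

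**Figure D5:**
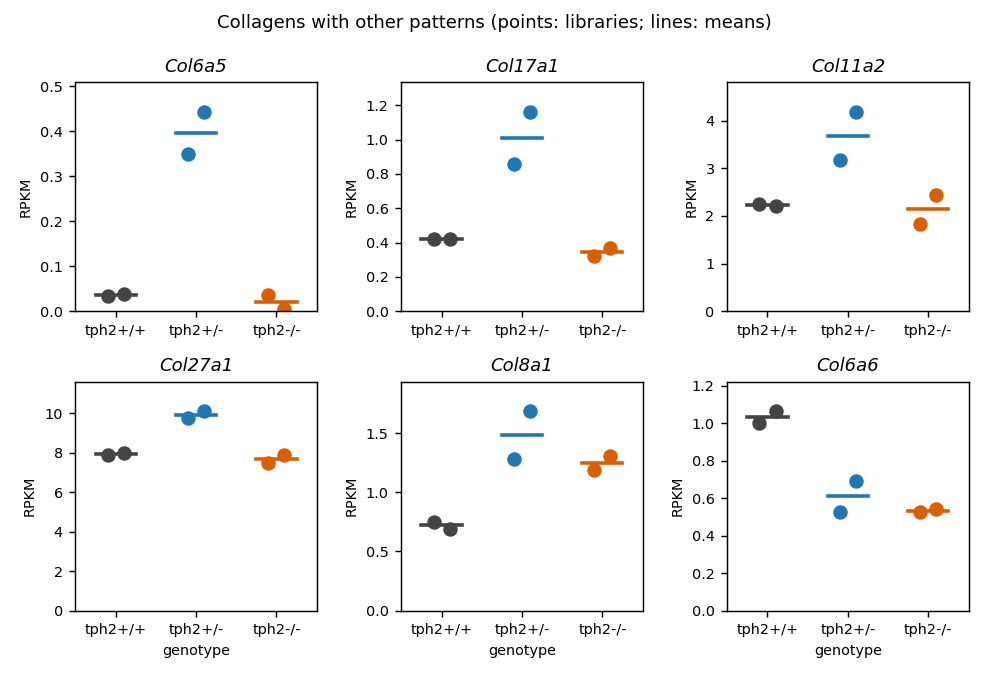
RPKM of Col6a5, Col17a1, Col11a2, Col27a1, Col8a1 and Col6a6 by genotype, on axes from 0, with a point for each library and a line at the mean of 2. The first 4 are highest in both tph2+/- libraries, Col8a1 is higher in all 4 mutant libraries than in tph2+/+, and Col6a6 is lower in them.

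Genes that make, cross-link, bind and break down collagen were described from lists of their roles. Enzymes that modify and fold collagen chains in the cell, such as prolyl hydroxylases, did not pass in tph2-/- against tph2+/+ by limma (0 of 22, with 6 lower at an unadjusted p under 0.05 and a median of -0.10). Over all tested genes, 26.8% had such a p in either direction and 10.9% were lower. P4ha3, a prolyl hydroxylase subunit, was lower in tph2-/- than in tph2+/- (-0.62 ± 0.0960, limma adjusted p = 0.0146). Of 12 tested genes that cleave propeptides or cross-link chains, 5 fell in tph2-/- and 0 rose, with a median of -0.25 and with 3.81% lower and 5.84% higher among all tested genes. At an unadjusted p under 0.05, 7 were lower and 1 higher. The 5 that fell were Pcolce, which enhances propeptide cleavage (-0.49), the lysyl oxidase relatives Loxl1 and Loxl2 (-0.43 and -0.33), the protease Bmp1 (-0.21) and Pxdn, which cross-links collagen IV (-0.20). In tph2+/-, Pcolce and Loxl2 fell (-0.43 and -0.42) and Pcolce2 rose (0.55), against 1.95% lower and 4.13% higher among all tested genes. Pcolce2 passed the filter only through the mutant libraries, with a mean of 0.844 RPKM in tph2+/+. Pcolce was at 61.9 and 66.5 RPKM in tph2+/+, against 47.4 and 47.2 in tph2+/- and 42.4 and 48.4 in tph2-/-. Its 4 mutant libraries were thus all below tph2+/+, as for Col4a1.

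Of 16 tested laminin, nidogen, proteoglycan and other basement membrane genes, 6 fell and 2 rose in tph2-/- (3.81% and 5.84% of all tested genes), with a median of -0.21. Hspg2, the proteoglycan perlecan, was at 26.9 and 29.9 RPKM in tph2+/+, against 21.1 and 22.3 in tph2+/- and 18.3 and 20.1 in tph2-/-. It fell in tph2-/- (-0.54 ± 0.0708, limma adjusted p = 0.00228) and in tph2+/- (-0.38, adjusted p = 0.0154). Nid2, Lama5 and Agrn, which encode a nidogen, a laminin chain and agrin, fell in tph2-/-, with differences of -0.34, -0.33 and -0.32. Frem2, which helps hold embryonic epithelia to mesenchyme, rose by 0.28 and also rose in tph2+/- (0.47). In tph2+/-, 2 of 16 fell and 1 rose (1.95% and 4.13% of all tested genes). Those that fell were Hspg2 and the laminin chain Lama1 (-0.55).

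Of 12 tested fibril partners, 2 fell in tph2-/- (3.81% of all tested genes), the proteoglycan Bgn (-0.43) and the microfibril gene Fbn2 (-0.24). In tph2+/- 0 passed by limma, and 5 did at an unadjusted p under 0.05, against 20.2% of all tested genes. Among 9 tested proteases and inhibitors, 4 fell in tph2-/- (3.81% of all tested genes), namely Ctsk (-0.55), Mmp2 (-0.37), Timp2 (-0.33) and Mmp14 (-0.26). In tph2+/- 0 passed by limma, and 3 did at an unadjusted p under 0.05, against the same 20.2%. Mmp2, a gelatinase, was also lower in tph2-/- than in tph2+/- (-0.30, limma adjusted p = 0.0495). Of 10 tested collagen receptors, 3 fell in tph2-/- (3.81% of all tested genes), the uptake receptor Mrc2 (-0.43), the kinase Ddr2 (-0.25) and Antxr1 (-0.25). The adhesion receptor Adgrg1, which binds collagen III, rose in tph2-/- (0.91) and in tph2+/- (0.75), directions in which 5.84% and 4.13% of all tested genes passed.

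Markers of other cell types differed between the same libraries. In tph2-/- against tph2+/+, 3 of 6 smooth muscle markers and 5 of 7 somite muscle markers fell. Of 7 mesenchyme markers, 3 fell and 1 rose. In tph2+/- against tph2+/+, 1 of 6 smooth muscle and 4 of 7 somite muscle markers fell, and 2 of 7 mesenchyme markers rose and 0 fell. Over all tested genes, 3.81% fell and 5.84% rose in tph2-/-, and 1.95% fell and 4.13% rose in tph2+/-. Mesenchyme markers summed to 319 and 329 RPKM in tph2+/+, against 322 and 317 in tph2+/- and 281 and 294 in tph2-/-, and smooth muscle markers to 141 in both tph2+/+ libraries and 95.3 to 117 RPKM in the 4 mutant ones. Somite muscle markers summed to 334 and 341 RPKM in tph2+/+ and 224 to 309 in the mutant libraries. Hepatoblast markers rose, 6 of 6 in both mutant genotypes, from sums of 34.2 and 35.0 RPKM in tph2+/+ to 240.3 to 384 RPKM in the mutant libraries. Of 6 tested neural markers, 5 rose in tph2-/- with a list median of 1.35, and 1 was lower at an unadjusted p under 0.05 (10.9% of all tested genes). In tph2+/-, 3 rose and 1 fell, with a median of 0.34. The 7 neural markers summed to 124 and 134 RPKM in tph2-/-, against 90.6 and 91.3 in tph2+/+ and 75.2 and 85.6 in tph2+/-. Endothelial markers did not pass by limma, 0 of 7 in either mutant genotype, with 1 lower in tph2-/- and 4 lower in tph2+/- at an unadjusted p under 0.05 (10.9% and 7.06% of all tested genes), and summed to 97.0 and 99.0 RPKM in tph2+/+ and 86.7 to 91.0 in the mutant libraries. Of the 7 AGM markers, 2 fell in tph2-/- (Wt1 and Nr5a1) and 3 in tph2+/- (these and Pax2), and they summed to 73.9 and 74.8 RPKM in tph2+/+ and 59.5 to 67.2 in the 4 mutant libraries. No list was at 0 throughout, and the part of these cell types in the collagen values was not tested.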

How the data were processed

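RNA from AGM of C57BL/6 embryos of age E11.5 was sequenced in 6 libraries, 2 for each of 3 Tph2 genotypes. Per the labels' protocols, about 1 µg of total RNA went into a TruSeq kit that does not mark strand, and reads were pairs of 150 bp. Per the submitters' processing notes, TopHat2 2.0.9, HTSeq 0.5.3p9 and the build GRCm38 were used. The deposited unit was RPKM, computed by the authors, and the gene models behind it are not stated in the sources used.

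Of 56826 rows, 33353 with clone identifiers and 27 with dates in place of symbols were left out, which left 23446 genes. Symbols matching the collagen pattern numbered 44, and leaving out 4 cartilage genes gave the 40 studied. Col21a1 had no row and was not analysed here. Genes averaging 1 RPKM or more over the 6 libraries were kept (12869). Their log2(RPKM + 1) values were modelled by genotype over all 6 libraries with limma 3.58.1 under R 4.3.3 (lmFit, contrasts, eBayes with trend and robust options, 3 residual degrees of freedom, no covariate). Adjusted p-values are Benjamini-Hochberg values across the 12869 genes, and they measure only the spread between these libraries, which may be technical. The fit was tested on simulated data with known changes and independent noise of the same size for every gene. Counting error and shifts shared by many genes were not simulated, so that run checks the code and not the calls made here. Standard errors come from the fit, and each SD is over 2 libraries.

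Reads of genes under 0.5 RPKM were estimated from the steps between low values. Ratios of them carry 95% exact binomial intervals, which cover counting error only. Gene positions are those of GENCODE on GRCm38, and promoter sequences from RefSeq on GRCm38.p6. Of the 40 collagens 33 had such a sequence.

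The members and the lists of partner and marker genes were chosen with earlier results of these data known. Collagens past the threshold in any comparison, and the 3 of each class with the highest mean RPKM, are given in every library. From each partner list, up to 6 genes past the threshold in tph2-/- against tph2+/+ were named by size of difference. P4ha3, Pcolce2, Lama1, Krt14 and the named cartilage and AGM markers fall outside this rule and were chosen after their values were seen.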

Additional observations from a re-analysis of the deposited data

How the results depend on the processing

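No collagen reversed its direction where it had passed, under any of 14 alternative fits for each comparison. Not all of these could reverse it. The difference stays the same without the filter, without the trend and robust options, with only the 4 libraries compared and with replicate blocks. It also stays the same when a library of the genotype not compared is left out, which nearly repeats the fit of only the 4 libraries compared. Of the 13 calls over the 3 comparisons, 13 were kept with a pseudocount of 0.1 and with replicate blocks, 12 with median ratio scaling, 11 with quantile normalization, 10 without the filter, without the trend and robust options and with only the 4 libraries compared, 4 with the Y-linked term, and 2 to 11 with a library left out. A fold of at least 1.5 on the log2(RPKM + 1) scale left 0 in every comparison.

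In tph2-/- against tph2+/+, the count of 6 became 10 with median ratio scaling, 16 with only the 4 libraries compared, 11 with the Y-linked term, and 2 to 16 with a library left out. In tph2+/- against tph2+/+, where the count was also 6, leaving out a library gave 0 to 8. Between tph2-/- and tph2+/-, the count of 1 became 2 with a pseudocount of 0.1 and with median ratio scaling, and 3 with quantile normalization. It was 0 with only the 4 libraries compared and 8 with the Y-linked term, and it also moved with a library left out. Without the filter it was 2, but these were the low genes Col6a5 and Col17a1, and Col27a1 was lost. With replicate blocks the counts were 13, 7 and 4. Deviations of libraries with the same replicate number correlated across genes at 0.0330, 0.170 and 0.0727 for the 3 pairs of genotypes. On 2 libraries a genotype, this cannot show whether libraries shared a litter or batch. The numbers were not taken to pair the libraries because the labels do not say which shared a litter. With 2 libraries a genotype the remaining spread rests on few degrees of freedom.

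Medians of the fibrillar, basement membrane and other classes and of collagen IV alone in tph2-/- against tph2+/+ were -0.47, -0.47, -0.59 and -0.49 with the Y-linked term. Leaving out a library gave -0.25 to -0.20, -0.37 to -0.31, -0.22 to -0.15 and -0.37 to -0.31. With members under the filter included, the basement membrane and collagen IV medians were -0.24 and -0.23. In tph2+/- against tph2+/+ the Y-linked term gave -0.37 for basement membrane and -0.19 for other collagens, and members under the filter brought both the basement membrane and the collagen IV median to -0.18. Leaving out a library there gave -0.17 to 0.04, -0.37 to -0.23, -0.19 to 0.090 and -0.37 to -0.23. Between tph2-/- and tph2+/- the Y-linked term gave -0.34, -0.14, -0.32 and -0.14, and leaving out a library -0.33 to -0.0597, -0.13 to 0.013, -0.32 to -0.067 and -0.13 to 0.033. The cause of these shifts was not tested. Depth limits what can be said of Col4a3, Col4a4, Col6a4 and Col10a1, which rested on at most 38 estimated reads a library.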
